A study of Drosophila melanogaster with 32 samples.

Results

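The genes of the cytosolic ribosomal proteins were followed in 3 Drosophila melanogaster cell lines, named R1, R4 and R5, as the cultures were passaged. The genes were chosen by name. They were the protein-coding entries whose symbol begins with RpL or RpS and a number, together with RpLP0, RpLP1 and RpLP2, and without RpS3A and the copies RpS5a, RpS5b, RpS10a, RpS10b, RpS19a, RpS19b, RpL22 and RpL22-like. The rule gave 76 of the 15251 genes counted, 28 for the small (40S) and 48 for the large (60S) subunit. Of these, 73 reached a CPM of 1 or more in 3 or more libraries and were tested, as were 9183 genes in all. CPM are counts scaled to a common library size. RpL10Aa was without a read in all 32 libraries, which allows at most 0.00823 CPM (3 counts over all libraries). RpS28a had 1 read and RpL37b had 6 reads in all libraries together.

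Each of the 32 libraries was total RNA of 1 passage of 1 line, depleted of ribosomal RNA. Flask cultures were kept in Schneider's medium to which serum and antibiotics were added, and no treatment set the lines apart. Early libraries were passages 2, 3 and 4 of each line, and late libraries were passages 16, 17 and 19 of each line. Intermediate libraries were passages 5, 7, 8, 10 and 11 of R1, passages 5, 6, 7, 9 and 11 of R4, and passages 6, 7 and 8 of R5. Passage 12 of R4 belonged to no stage and entered no comparison. No source used here gives genotype, tissue of origin or cell type for R1, R4 or R5, so no cell type could be checked against markers. Successive passages are samples of 1 culture, so p-values within a line measure only the spread between passages. In bulk RNA, fewer cells of a type and less RNA per cell cannot be told apart.

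Cytosolic ribosomes consist of ribosomal RNA and a set of proteins that are built into each particle in equal amounts, apart from the stalk proteins, which come in pairs. The genes for these proteins are among the most strongly transcribed of any growing cell, and in animals their mRNAs carry a pyrimidine-rich start through which the TOR pathway controls their translation. In flies, loss of a single copy of many of them causes the Minute phenotype of slow growth and thin bristles, and Minute cells are outcompeted by wild-type neighbours.

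The 76 genes held between 6.93% (R5 at passage 19) and 9.12% (R4 at passage 17) of the reads of a library. The widest 95% counting interval (Wilson) of such a share was ±0.0196 percentage points, so counting error was small beside the differences between libraries. Intervals and floors cover counting error only. In R1 the share was 7.66% ± 0.744 (SD, n = 3) at early, 8.43% ± 0.604 (n = 5) at intermediate and 8.55% ± 0.182 (n = 3) at late. R4 had 8.16% ± 0.215 (n = 3), 8.42% ± 0.290 (n = 5) and 8.76% ± 0.315 (n = 3). R5 had 8.13% ± 0.639, 8.29% ± 0.536 and 8.15% ± 1.06 (n = 3 each). The late share exceeded the early share by 0.897 percentage points in R1, by 0.603 in R4 and by 0.0155 in R5. Without passage 19 the late share of R5 was 8.75% and the excess 0.623 points, and without passage 3 the excess in R1 was 0.575 points. The excess without passage 4, the highest early library of R1, was not computed. The 3 early and the 3 late libraries of R4 did not overlap, whereas early R1 reached into the late range through passage 4 (8.47%), and in R5 the early and late libraries overlapped fully.

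**Figure D1:**
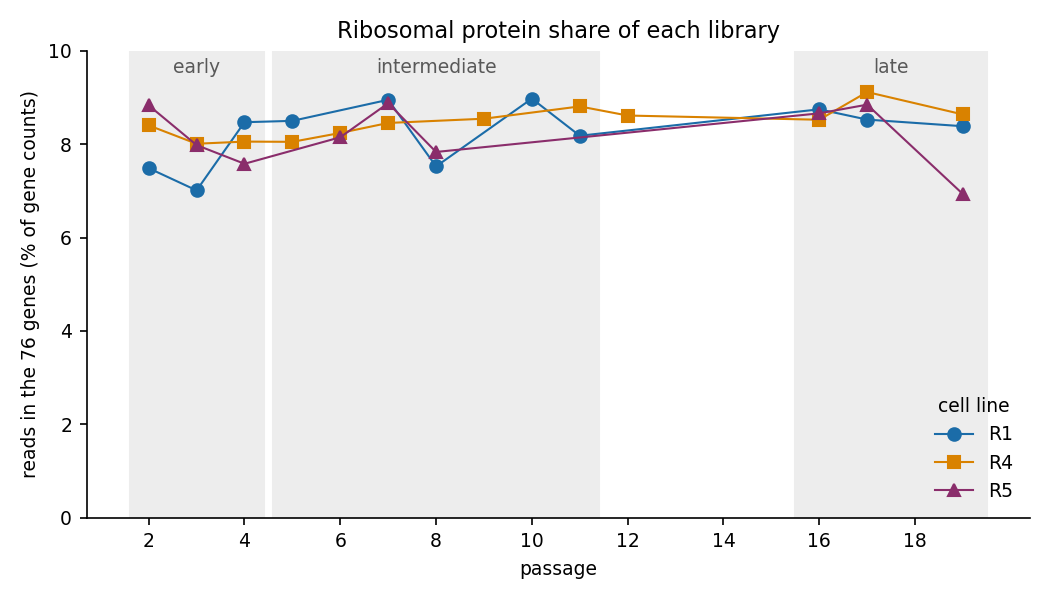
Share of gene counts (%, vertical axis from 0) held by the 76 ribosomal protein genes in each library, against passage, for lines R1 (circles), R4 (squares) and R5 (triangles); grey bands mark the stages. The shares lie between 6.93% and 9.12%, with the lowest points at passage 19 of R5 and passage 3 of R1.

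The libraries with the lowest shares were low in the ribosomal protein genes as a group. At passage 19 of R5 (6.93%) each of the 73 tested genes lay below the mean of the other late R5 libraries (passage 16 at 8.66% and passage 17 at 8.85%). The median difference was -0.35 on the log2 scale, from -0.73 to -0.08, while the median over all tested genes was 0.00. At passage 3 of R1 (7.01%), 71 of the 73 genes lay below the mean of the other early R1 libraries, with a median of -0.26, and the median over all tested genes was 0.01. The mitochondrial ribosomal proteins, encoded in the nucleus and built into another ribosome, had medians of -0.03 and 0.00 in the same comparisons. Some results that rest on these libraries are given below with and without them. Libraries were also apart from their group on the high side. Relative to the mean of the staged libraries, the members' median was -0.14, -0.33 and 0.05 at passages 2, 3 and 4 of R1. In R5 it was -0.09, 0.12 and -0.16 at passages 6, 7 and 8.

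Levels of the genes differed far more from gene to gene than from library to library. Per kb of coding length, the mean over the 31 staged libraries ran from 81.3 CPM (RpS15Ab) to 69661 CPM (RpL41), with a median of 2157. RpL41, which encodes the smallest ribosomal protein, stood highest also per kb of exon (16327 CPM), although its coding length is only 75 bases and its value per kb is sensitive to that. The next highest per kb of coding length were RpS29 (13568 CPM), RpS27 (9876 CPM) and RpS28b (8251 CPM), all small 40S proteins. Per kb of exon RpS27 kept a high place (3414 CPM, rank 2 of 73). RpS29 (2263.5 CPM, rank 13) and RpS28b (1655 CPM, rank 19) did not, so their places depended on the length used. The lowest were RpS15Ab, RpL34a (98.5 CPM), RpL23A (335 CPM) and RpS14b (384 CPM), of which all but RpL23A are the weaker copy of a gene pair. The median was 2533 CPM per kb for the 27 tested 40S genes and 1837 for the 46 tested 60S genes. Without members of gene pairs, the 90th percentile exceeded the 10th percentile 5.82 times per kb of coding length and 5.11 times per kb of exon. RpLP0, the base of the stalk, lay at 544 CPM per kb of coding length, against 2414 for RpLP1 and 4945 for RpLP2, the paired stalk proteins that it carries. The order of the genes changed little between lines and stages. Spearman's rank correlation across the 73 genes lay between 0.971 and 0.994 in the 36 pairs of line and stage groups, where gene length and read mappability are shared by all groups.

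**Figure D2:**
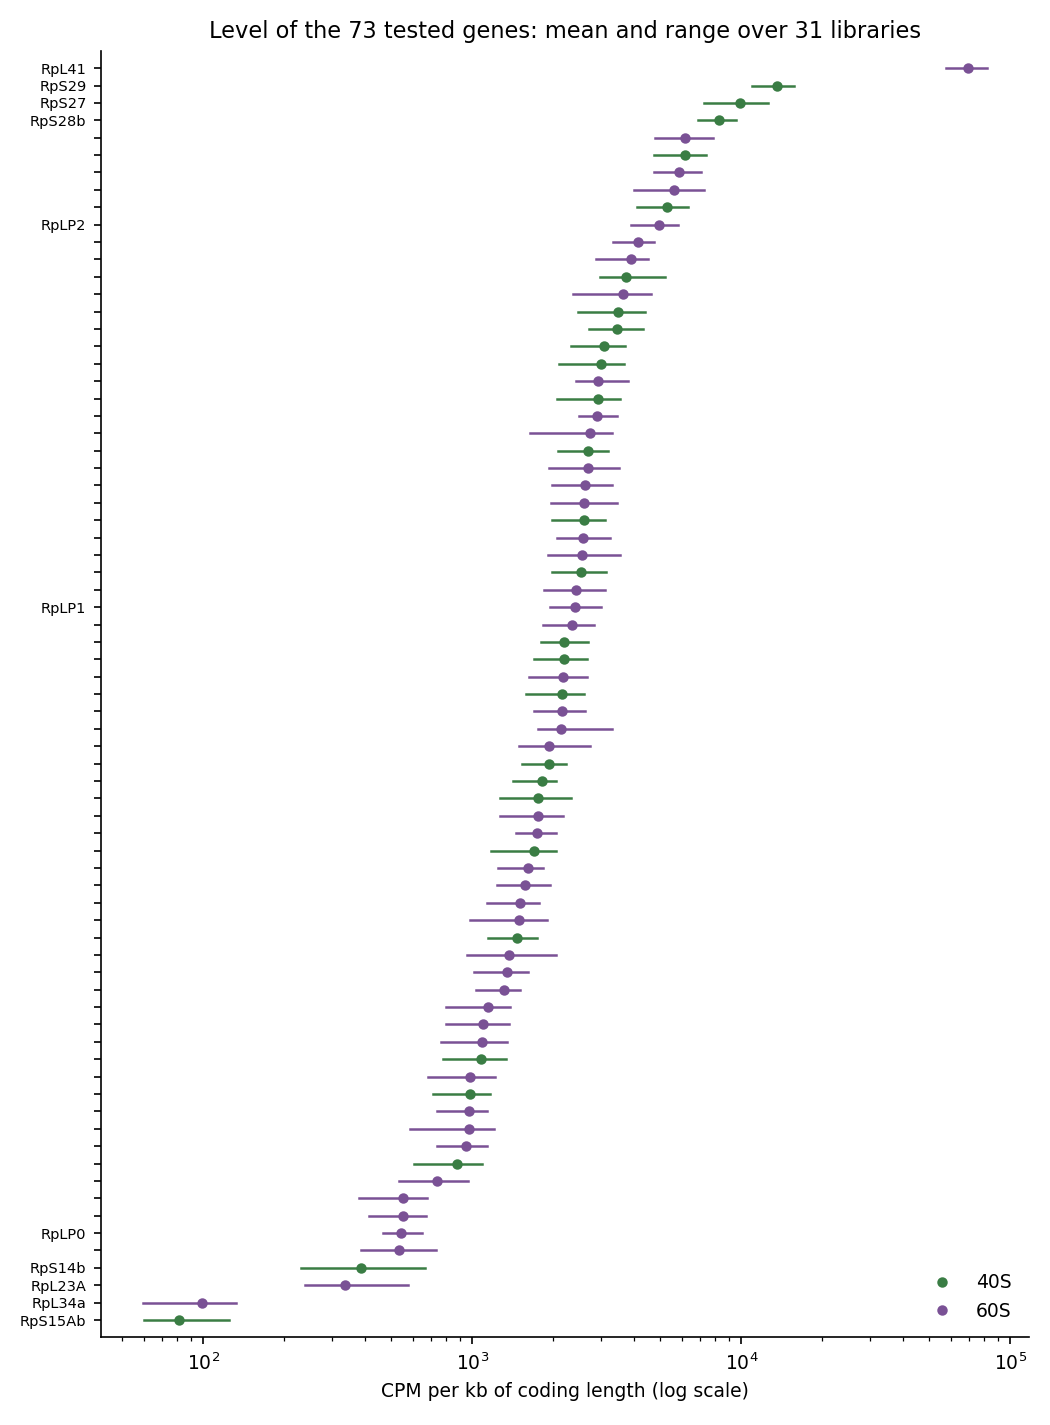
Mean level (point) and range over 31 libraries (line) of each tested ribosomal protein gene, as CPM per kb of coding length on a log axis, for 40S (green) and 60S (purple) genes, with the 4 highest, the 4 lowest and the stalk genes named. RpL41 lies highest at 69661, and RpS15Ab and RpL34a lie lowest at 81.3 and 98.5.

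Over lines and stages together, the genes varied little. The SD of log2 CPM over the 31 libraries had a median of 0.17 over the 73 genes, against 0.28 over all tested genes and 0.22 over the 4377 other genes with a mean at or above that of the lowest member. The 10th percentile was 0.13 both for the members and for those other genes, which were not otherwise matched for level. The least variable were RpL19 (0.11), a 60S protein that reaches across to the small subunit, RpL41 and RpS6 (both 0.12), and RpL21 (0.12). RpS6 is the best known target of S6 kinase and ran from 1056 to 1524 CPM. The most variable were RpL23A (0.31), RpS14b (0.30), RpL34a (0.28) and RpL28 (0.26). Each of these is treated below, by its place on arm 3L or its near-identical copy.

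The comparison of late with early passages asks whether expression of the ribosome's genes shifted as the lines became established. Over the 3 lines, 2 of the 73 genes passed the test and both rose, RpL37A and RpLP1, while 10.5% of all genes tested passed (3.97% higher and 6.56% lower). The genes nevertheless lay mostly on the same side. The fitted log2 change was above 0 for 70 of 73 genes (95.9%, against 54.3% of all genes tested), with a median of 0.15 against 0.03. This fit scaled the counts summed per line and stage on their own, so its changes are not on the scale of the fits within lines. Those had member medians of 0.18 in R1, 0.11 in R4 and 0.03 in R5, beside -0.01, -0.02 and 0.00 over all genes. All 27 tested 40S genes were above 0 (median 0.17) and 43 of 46 tested 60S genes were (median 0.12). With each library left out in turn, the median over all members ran from 0.09 to 0.18. At an unadjusted p under 0.05, 23 were higher and 0 were lower, a share of 31.5% against 15.8% of all genes that were higher (30.9% in either direction). The count of calls depended on the method and on single libraries. It was 16 with DESeq2, 8 without R5 at passage 2, 6 without R5 at passage 19, 4 without all passage 2 libraries, and 1 with other scalings (median of ratios or total counts). It was 0 with no filter, with the stricter filter, without the line block, without R1 and without R4. It was also 0 without any 1 of R1 at passage 16, R4 at passage 2 and R5 at passage 16. Without R5 it was 3, namely RpL31, RpL36A and RpS14b. The share of all genes called in these runs is not given here, so the counts do not set the members apart from other genes.

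RpL37A, a zinc-binding 60S protein on arm 2L (not to be confused with RpL37a, a different 60S gene on X), had the largest change. In R1 it stood at 585, 589 and 691 CPM at early, at 780.0, 885, 749, 772 and 974 CPM at intermediate, and at 927, 801 and 861 CPM at late. In R4 the early values were 527, 585 and 598 CPM, the intermediate values 527, 605, 617, 658 and 742 CPM, and the late values 888, 729 and 709 CPM. In R5 they were 638, 625.3 and 549.7 CPM at early, 696, 776 and 577 CPM at intermediate, and 819, 709.9 and 626 CPM at late. The late libraries of R1 and R4 all lay above the early ones, and in R5 passage 19 lay within the early range. The means of these library values in R1, R4 and R5 were 622, 570 and 604 CPM at early and 863, 776 and 718 CPM at late. On the counts summed per line and stage, which were scaled on their own, the mean over lines was 589.6 ± 26.5 CPM at early. At late it was 800.3 ± 74.9 CPM (SD, n = 3 lines), a log2 change of 0.44 ± 0.09 (SE; edgeR quasi-likelihood test, adjusted p = 0.0361). The call was lost when any line was left out (adjusted p = 0.0507 without R5, 0.195 without R1 and 0.309 without R4, edgeR), with no filter and with the stricter filter (0.0509 for both) and without the line block (0.0834). Its exons overlap an antisense RNA over 153 bases, and reads of the 2 strands cannot be told apart here.

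RpLP1, which with RpLP2 forms the flexible stalk that recruits the elongation factors, was the other. In R1 it went from 675, 669 and 736 CPM at early to 916, 848 and 855 CPM at late. In R4 it went from 713, 691 and 656 CPM to 885, 989.5 and 869 CPM. In R5 the early values were 922, 838 and 715 CPM and the late values 1007, 922 and 866 CPM. Early and late libraries were fully separate in R1 and R4 and overlapped in R5, where passage 2 was already as high as the late libraries. The fitted change was 0.33 ± 0.08 (adjusted p = 0.0490, edgeR) and lay just inside the threshold, so that 10 of 13 other settings and 22 of 31 single omitted libraries put it outside (adjusted p up to 0.423, without R4). The other stalk genes did not pass. RpLP0 averaged 502 ± 33.1 CPM over lines at early and 556 ± 46.4 CPM at late (log2 change 0.15 ± 0.07, adjusted p = 0.212) and RpLP2 from 1636.5 ± 115 to 1684 ± 76.8 CPM (log2 0.04 ± 0.07, adjusted p = 0.729).

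**Figure D3:**
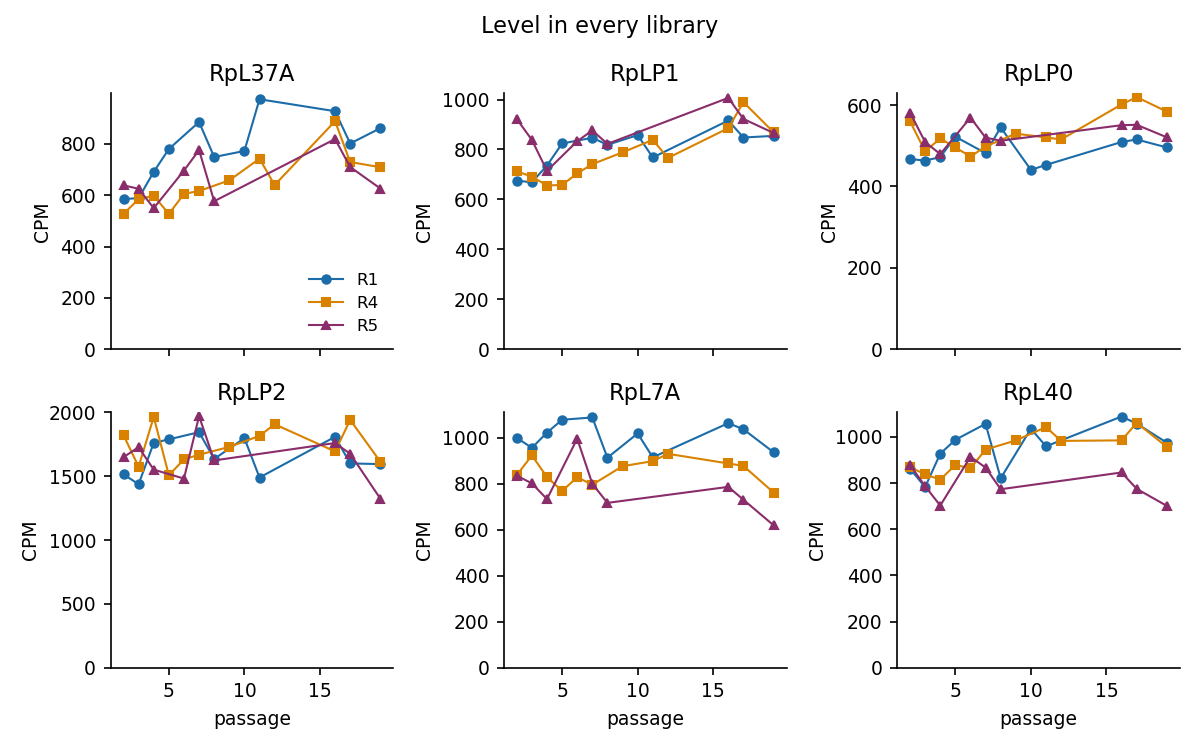
Level (CPM, vertical axes from 0) of RpL37A, RpLP1, RpLP0, RpLP2, RpL7A and RpL40 in every library against passage, for R1 (circles), R4 (squares) and R5 (triangles). RpL37A and RpLP1 lie higher at late than at early passages in R1 and R4, RpLP0 and RpLP2 change less, and RpL40 lies lowest in R5 at late passages, where RpL7A lies highest in R1.

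Among the other 60S genes, none passed from early to late. RpL3 and RpL8 lie close to the peptidyl transferase centre, and their log2 changes were 0.05 ± 0.10 (adjusted p = 0.746) and 0.39 ± 0.09 (adjusted p = 0.0531), the second discussed below with arm 3L. RpL5 and RpL11, which bind 5S ribosomal RNA and in mammals restrain Mdm2, changed by 0.02 ± 0.07 (adjusted p = 0.877) and 0.09 ± 0.07 (adjusted p = 0.440). RpL23, at the face of the subunit that meets the 40S, had 0.04 ± 0.07 (adjusted p = 0.735), and RpL41, also between the subunits, 0.08 ± 0.07 (adjusted p = 0.474). RpL40, made as a fusion with ubiquitin, had 0.20 ± 0.08 (adjusted p = 0.169). Below 0 were only RpL21 (-0.10), RpL15 (-0.02) and RpL7A (-0.01), with adjusted p of 0.344, 0.915 and 0.914.

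RpL21 was the member whose late libraries lay lowest against its early ones. In R1 it went from 1355, 1349.6 and 1408 CPM to 1303, 1199.5 and 1199 CPM, and in R4 from 1549, 1491 and 1644 CPM to 1439.8, 1489 and 1344 CPM. In both lines every late library lay below every early one, a pattern shown by 1 of 73 members in each line and by 24.6% and 19.9% of all genes tested. In R5 the early values of 1635, 1539 and 1364 CPM overlapped the late values of 1444, 1506 and 1270.1 CPM. None of these differences passed (log2 -0.16 in R1, -0.13 in R4 and -0.10 in R5, adjusted p = 0.150, 0.229 and 0.457, edgeR).

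Of the 40S genes none passed over the 3 lines. RpS26 and RpS28b sit where mRNA leaves the small subunit, and had log2 changes of 0.29 ± 0.08 (adjusted p = 0.0759) and 0.20 ± 0.06 (adjusted p = 0.0936). RpS3 lines the mRNA entry and had 0.19 ± 0.09 (adjusted p = 0.187), and RpS15, near the decoding site, had 0.17 ± 0.07 (adjusted p = 0.186). RpS12, which flies need for the competition of Minute cells, went from 686 ± 75.4 to 759 ± 29.5 CPM (log2 0.15 ± 0.07, adjusted p = 0.216). RpS6 (0.05 ± 0.06, adjusted p = 0.646) and RpS27A, another ubiquitin fusion (0.07 ± 0.09, adjusted p = 0.642), had the smallest changes among the named 40S genes.

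Over the 3 lines together, the median change was larger between early and intermediate than between intermediate and late passages. By mean library share the lines differed in this. R1 had 7.66%, 8.43% and 8.55% at early, intermediate and late, R4 8.16%, 8.42% and 8.76%, and R5 8.13%, 8.29% and 8.15%. Intermediate against early, 0 of 73 members passed with edgeR (9.67% of all genes passed, 3.66% higher and 6.01% lower). With DESeq2 4 were called, and 12 members had an unadjusted p under 0.05, all higher (16.4%, against 15.8% of all genes higher and 32% in either direction). The fitted change lay above 0 for 70 members, with a median of 0.12 (all genes 0.03). With each library left out in turn, the members' median ran from 0.08 to 0.15. RpL28 came nearest (0.41 ± 0.10, adjusted p = 0.0586). Late against intermediate, 0 members passed with edgeR (0.0762% of all genes passed, 0.0218% higher and 0.0544% lower), 0 had an unadjusted p under 0.05 (11% of all genes, 5.35% higher), DESeq2 called 0, and the median was 0.02 (all genes 0.00). These comparisons share libraries with the one above and are not independent of it.

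Within single lines, R1 and R4 had more members called than R5 outside arm 3L. In R1, 6 of 73 members rose and 0 fell, while 27.7% of all genes passed (12.5% higher and 15.2% lower). They were RpLP1, RpL37A, RpS16, RpL36A, RpL40 and RpL30, with log2 changes of 0.27 to 0.47. In R4, 7 rose and 0 fell, while 30.9% of all genes passed (14.1% higher and 16.7% lower), among them RpLP1, RpL37A, RpL36A, RpS26, RpL31 and RpLP0, with log2 changes of 0.21 to 0.45. The R4 call of RpL31 was lost without passage 2, 3 or 17 of R4 (adjusted p up to 0.348, edgeR) and in 4 of 9 other settings. That of RpLP0 was lost with 7 of 31 single omitted libraries and in 5 of 9 other settings, and that of RpLP1 with 0 of either. In R5, 4 rose and 0 fell, while 17.5% of all genes passed (7.75% higher and 9.72% lower), namely RpL8, RpL23A, RpL28 and RpL14. Over the members, R1 had a median change of 0.18, R4 of 0.11 and R5 of 0.03, beside -0.01, -0.02 and 0.00 over all genes. In all 3 lines the share of members called was below that of all genes. Every late library lay above every early one for 22 members in R1 (24.3% of all genes), 28 in R4 (20.1%) and 3 in R5 (15.6%), the 3 being RpL8, RpL14 and RpL23A. Without passage 4 of R1, the highest of its early libraries, the members called in R1 were 24 with a median of 0.27. Without passage 3 they were 2 (RpL37A and RpLP1) with a median of 0.11. The share of all genes called in these runs is not given here. Without passage 19 of R5 the median in R5 was 0.14. The test of whether the change differed among lines called 0 members with edgeR (12.8% of all genes, 2 members with an unadjusted p under 0.05 against 27.7% of all genes, and 1 with DESeq2), so a different course of R5 was not shown gene by gene. Members of R1 and R4 stood above genes of like length. The 1818 other genes within the 10th to 90th percentile of the members' exon length had medians of -0.09 in R1, -0.09 in R4 and 0.05 in R5.

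**Figure D4:**
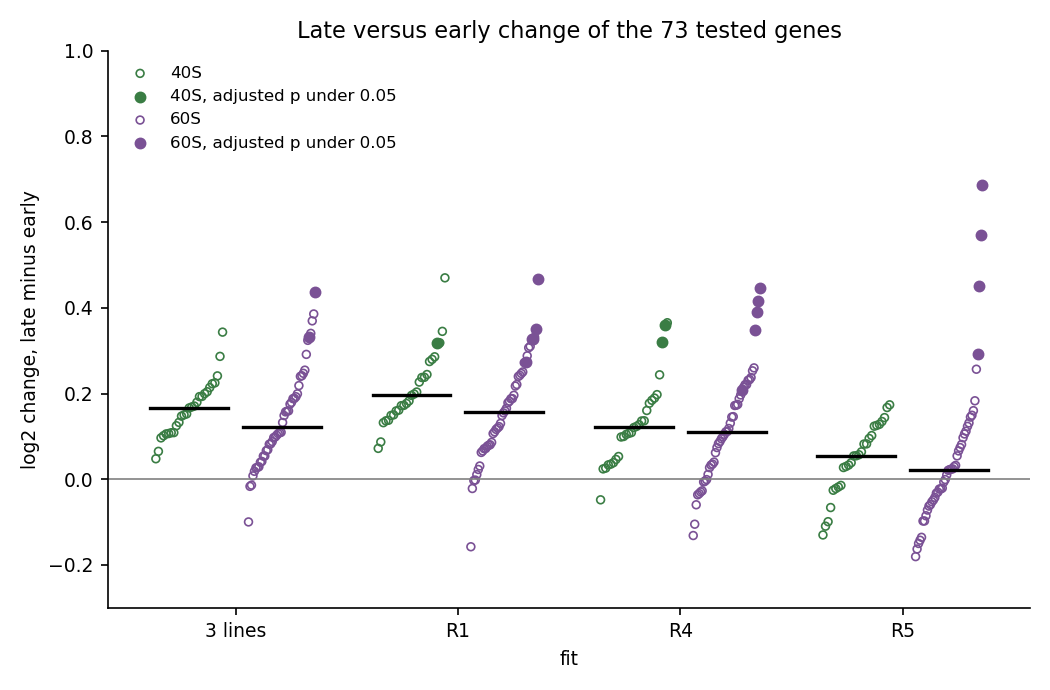
Fitted log2 change from early to late (vertical axis) of the 73 tested genes, over the 3 lines and within R1, R4 and R5; each point is a gene, 40S (green) or 60S (purple), filled where the adjusted p is under 0.05, and bars are medians. The medians are 0.17 (40S) and 0.12 (60S) over the 3 lines, and the 4 filled points of R5 are RpL23A, RpL8, RpL28 and RpL14.

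The 4 members that rose in R5 (edgeR) all lie on arm 3L, and 3 of them lie near its tip. RpL8, the core protein named above, stood in R5 at 914, 890.3 and 881 CPM at early, 1134, 1378 and 1183 CPM at intermediate, and 1568, 1483 and 916 CPM at late. The late value of passage 19 was close to the early ones, and the other late values were the highest of all libraries of this gene. Its change in R5 was 0.57 ± 0.13 (adjusted p = 0.00285), and 0.77 without passage 19. RpL23A, at the exit of the peptide tunnel, went from 224, 251 and 251 CPM at early through 331, 359.7 and 371 CPM to 477, 334 and 353 CPM at late (0.69 ± 0.17, adjusted p = 0.00593), and all its intermediate and late R5 libraries lay above the early ones. RpL28 went from 185, 213 and 183 CPM through 301, 274 and 269 CPM to 317, 284 and 189.5 CPM (0.45 ± 0.13, adjusted p = 0.0181), with passage 19 again among the early values. RpL14, a Minute gene, went from 502, 431 and 399 CPM through 470.2, 540.3 and 442 CPM to 565, 543 and 516 CPM (0.29 ± 0.10, adjusted p = 0.0369). Its call was lost without passage 3, 4, 16, 17 or 19 of R5 (adjusted p up to 0.176), and that of RpL23A without passage 16 (0.0635). With passage 4 as intermediate only RpL23A and RpL8 were called in R5. Without all passage 2 libraries RpL28 was not called.

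Genes that are no members and lie beside them were higher in late R5 too. In the gene order of the BDGP6.54 annotation, the first 300 tested other genes of 3L were taken in 2 bins of 150, and their median log2 change in R5 was 0.59 and 0.68, with 126 and 136 genes above 0. In the 60 other bins of the 5 large arms the medians in R5 ran from -0.14 to 0.20. The highest of these were also on 3L, at 0.12 to 0.20 in its bins 3 to 8, and bins 9 to 12 ran from -0.05 to 0.03. On the other arms the highest was 0.09 (2L). Over all other genes of an arm, the median in R5 was 0.14 on 3L and -0.05 to 0.00 on the other arms. In R1 the first 2 bins of 3L had medians of 0.18 and 0.20 and in R4 0.16 and 0.22, where the other bins ran from -0.12 to 0.11 and from -0.14 to 0.08. RpL23A, RpL8 and RpL28 lie in the second bin. The 50 tested other genes on each side had medians in R5 of 0.80 around RpL23A, 0.67 around RpL8 and 0.45 around RpL28, beside changes of 0.69, 0.57 and 0.45 of the genes themselves. Around RpL14, further in, the neighbours' median was 0.20 (0.29 with 25 and 0.17 with 100 genes a side) beside its own 0.29.

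By library, the median of the 300 genes relative to the mean of the early libraries was -0.04, 0.00 and 0.08 in R5 at passages 2, 3 and 4. It was 0.37, 0.39 and 0.49 at passages 6, 7 and 8, and 0.68, 0.58 and 0.55 at passages 16, 17 and 19. It therefore stayed high at passage 19, where RpL8 lay 0.53 and RpL28 0.58 below it, and RpL23A 0.01 below it. In R1 its highest value after the early stage was 0.33 (passage 8) and in R4 0.18 (passage 19). DNA of the lines was not analysed here, and the part that gene copy number has in these levels was not tested. Exons of RpL23A overlap those of the snoRNA host gene Uhg7 and of a snoRNA over 518 bases on the same strand, so its reads are uncertain. Exons of RpL28 overlap snoRNAs over 61 bases on the same strand.

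**Figure D5:**
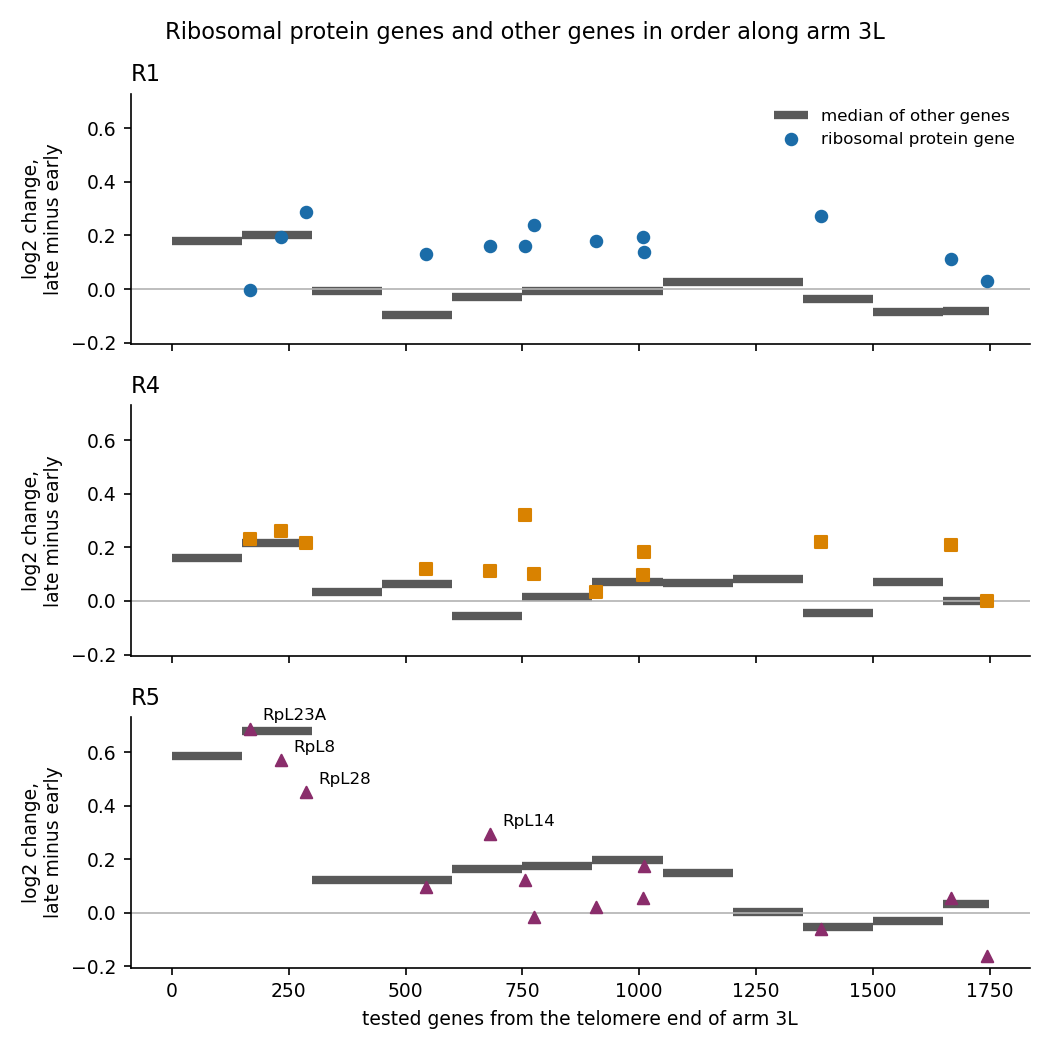
Log2 change from early to late (vertical axis) of the ribosomal protein genes (points) on arm 3L and the median of other genes (grey bars, 150 tested genes each, fewer in the last), against gene order from the telomere end, for R1, R4 and R5. In R5 the first 2 bars lie at 0.59 and 0.68, beside RpL23A, RpL8 and RpL28 at 0.69, 0.57 and 0.45.

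At late passages the lines differed in 12 of the 73 members, a share of 16.4% against 46.2% of all genes (edgeR joint F test over 3 lines). At early passages 0 members differed with edgeR without a passage block (4.68% of all genes), 9 had an unadjusted p under 0.05 (21.8% of all genes) and DESeq2 called 3. With passage as a block, which pairs the early libraries, edgeR called 1 member at early, RpL7A. The level of R5 relative to the other lines at late passages rested on its passage 19. By log2 ratios of mean CPM, the members' median was -0.12 to R1 and -0.14 to R4, with 50 and 53 of 73 below 0. Without passage 19 the medians were 0.02 and -0.03, with 35 and 39 of 73 below 0. The number of members that differed among lines was 11 without passage 19 (share of all genes not given here).

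In RpL37a, RpL7A and RpL40, all called, R5 had the lowest mean. RpL37a stood at 1276, 1217 and 1104 CPM in late R1, at 1324, 1285 and 1244 CPM in late R4 and at 999, 1008 and 932 CPM in late R5 (adjusted p = 0.000845). All late libraries of R5 lay below those of R1 and R4. RpL7A, a surface protein of the 60S, had 1013 ± 67.0 CPM in R1, 843 ± 70.3 in R4 and 713 ± 85.2 in R5 (SD, n = 3 each, adjusted p = 0.00185). Its late libraries were 1064, 1038 and 937 CPM in R1, 889, 878 and 762 CPM in R4, and 787, 731 and 619.9 CPM in R5. R1 lay above both other lines, and R4 and R5 overlapped through passage 19 of R4. At early its means were already in this order, 994 ± 33.8 CPM in R1, 864 ± 52.2 in R4 and 791 ± 52.0 in R5 (adjusted p = 0.122 without the passage block, edgeR). RpL40 stood at 1089, 1058 and 975 CPM in late R1, 985, 1061 and 957 CPM in late R4 and 846, 775 and 701 CPM in late R5 (adjusted p = 0.00240), with R5 below both. In RpS24 and RpL4 R5 was also lowest (adjusted p = 0.0187 and 0.0261). Neither was called without passage 19 of R5.

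R4 was highest in another set. RpL27A, a 60S protein, stood at 1767, 1579.5 and 1574 CPM in late R1, 2031, 1934 and 1827 CPM in late R4 and 1487, 1461 and 1062 CPM in late R5 (adjusted p = 0.00738), and all late R4 libraries lay above those of R1 and R5. RpLP0 stood at 507 ± 10.1 CPM in R1, 602 ± 17.8 in R4 and 541 ± 17.5 in R5 (adjusted p = 0.0257). RpL7, among the members in which R4 was furthest above both other lines, stood at 1617 ± 73 CPM in R1, 1904.5 ± 106 in R4 and 1626 ± 161 in R5 and was not called. RpL8 and RpL23A, on 3L, were the called members with R5 highest at late (adjusted p = 0.0114 and 0.00448). Late RpL23A was 235 ± 29.3 CPM in R1, 299 ± 76.7 in R4 and 388 ± 77.9 in R5.

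RpL34a, the weaker copy of the RpL34 pair, was higher in R1. Its late libraries stood at 57.3, 64.0 and 61.6 CPM in R1, 41.3, 41.5 and 42.6 CPM in R4 and 45.9, 46.6 and 29.0 CPM in R5 (adjusted p = 0.00590). It took 14.2% ± 1.79 of the reads of the pair in late R1, 9.96% ± 0.844 in late R4 and 10.7% ± 0.773 in late R5 (SD, n = 3). At early passages the shares were 13.6% ± 0.395, 11.6% ± 0.702 and 10.5% ± 1.28. RpS15Ab held between 1.83% and 3.73% of the reads of the RpS15A pair in the staged libraries. The copies of a pair share much of their sequence, and how reads that match both were counted is not stated in the labels. These shares are therefore uncertain.

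The RpS14 pair, next to each other on the X chromosome, encodes a protein of the 40S platform. RpS14b held between 16.1% and 24.0% of the reads of both copies in 31 libraries, and 36.9% (95% interval 35.9 to 38.0%, Wilson) in R4 at passage 17. In that library RpS14b stood at 303 CPM, against 177 and 175 CPM in the other late R4 libraries, and RpS14a at 518 CPM against 697 and 683 CPM. The sum of both was 821 CPM there and 874 and 858 CPM in the others. The late mean of RpS14b in R4 thus rests on passage 17. Over the 3 lines RpS14b had a log2 change of 0.34 ± 0.10 (adjusted p = 0.0784) and RpS14a 0.10 ± 0.08 (adjusted p = 0.415).

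Other genes of the ribosome and of translation were counted by list, and no difference between a list and the members was tested. Of the mitochondrial ribosomal proteins, 71 of 72 were tested, and from early to late 0 rose and 2 fell, with a median log2 change of -0.05. Within R1, 0 rose and 10 fell (14.1%, beside 15.2% of all genes that fell), with a median of -0.21. Within R4, 1 rose and 5 fell (7.04%, beside 16.7%), with a median of -0.10. Within R5, 6 rose and 1 fell (8.45% higher, beside 7.75% of all genes), with a median of 0.03. These shares were near or below those of all genes. Of 18 ribosome assembly genes none passed over the 3 lines, and 16 lay above 0 with a median of 0.12, beside 0.15 for the members. In R4 6 rose and 0 fell (33.3%, beside 14.1% of all genes higher; median 0.27), among them Fib, the methyltransferase fibrillarin (0.37), and the snoRNP proteins nop5 (0.48) and NHP2 (0.39). In R1 the same list had 0 higher and 1 lower, and 3 of 18 lay above 0 (median -0.09), beside a median of 0.18 for the members. Of 5 genes for RNA polymerase I transcription, Tif-IA, its initiation factor, rose in R4 (0.34). Of 7 elongation factors and 16 initiation factors none passed over the 3 lines (medians 0.05 and -0.03). Within R5, 2 initiation factors rose and 3 fell (12.5% and 18.8%, beside 7.75% and 9.72% of all genes). They were eIF-2beta, eIF3-S10, eIF-4E, eIF4G and pAbp. Within R1 and R4, 1 initiation factor fell (6.25%, beside 15.2% and 16.7% of all genes), eIF-1A in both. Ef1alpha100E, an elongation factor, fell in R4 (14.3%, beside 16.7%). Of 14 regulators of growth and of these genes none passed over the 3 lines. In R1 4 rose and 0 fell (28.6% higher, beside 12.5% of all genes), namely Mnt, raptor, M1BP and Dref. In R4 3 rose and 1 fell (21.4% higher, beside 14.1%, and 7.14% lower, beside 16.7%). These were raptor, M1BP, Dref and Irbp18. Dref, a factor that binds promoters of proliferation genes, rose by 0.42 in R1 and 0.51 in R4. M1BP, which binds ribosomal protein promoters in flies, rose by 0.27 in R1 and 0.39 in R4. In R5 0 rose and 1 fell (7.14%, beside 9.72% of all genes lower), namely Thor, the translation repressor downstream of TOR (-1.18). Of the 7 tested copies that the rule left out, 1 rose over the 3 lines (RpS5b). Within lines, RpS19b fell in R1 (14.3%, beside 15.2% of all genes) and RpS5b rose in R5 (14.3%, beside 7.75%). Both were called in R4, 1 higher and 1 lower (14.3% each, beside 14.1% and 16.7%). Of the ribosomal proteins filed as sta, sop and Rack1 none passed over the 3 lines, and 3 of 3 lay above 0 (median 0.19). Within R1, sta rose (33.3%, beside 12.5% of all genes). All these values are fitted log2 changes from edgeR with an adjusted p under 0.05 where a gene is said to have risen or fallen.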

How the data were processed

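The deposited files hold raw counts of reads per gene, 1 file per library. Per the submitters' processing notes, TopHat 1.4.1, Bowtie 0.12.8 and bedtools were used on the BDGP5 (dm3) build; which step each served, the counting rule and the strand setting are not stated in the labels. Entries without a gene (2 of 15253, 0.0123 to 0.0187% of counts) were left out. Total counts ran from 7760446 to 18213927 per library. No pair of libraries was identical.

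Members and lists were chosen with earlier results of these data known. The 76 members were matched to the BDGP6.54 annotation for names, arms, gene order and lengths; no coordinates are given, since builds differ, and no sequence table was given. Coding length came from that annotation in place of protein length.

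Passage 4, which the series text puts in both the early and the intermediate stage, was taken as early. TMM factors scaled the counts, and edgeR's quasi-likelihood test (edgeR 4.0.16, limma 3.58.1, R 4.3.3) was applied. Stages were compared on 9 sums of line and stage with line as block (4 residual degrees of freedom), and lines on 31 libraries in 9 groups (22). Deviations of a line correlated across genes between stages at r of 0.236 to 0.632, so lines pair the sums. Deviations of a passage correlated between lines at 0.115 to 0.729 at early and at -0.0749 to 0.0844 at late, so passage numbers pair the early libraries only. P-values were adjusted over all 9183 genes by Benjamini-Hochberg, with a threshold of 0.05. CPM in the text are TMM-scaled, for single libraries and means within a line over the 32 libraries. Means over lines come from the 9 sums, scaled on their own, and so differ somewhat from means of the library values. Alternatives included DESeq2 1.42.0 and limma-trend. The fits were tested on simulated data. Genes named were called members, those with the smallest p among lines, those most apart in 1 line, the highest, lowest, most and least variable, and a preset list (some of these are not reported here); RpL21, RpL31, RpL36A, RpS16 and others were added where a count was spelled out. Neighbour medians on 3L, pair shares and length-matched genes were added after seeing the data.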

Additional observations from a re-analysis of the deposited data

Results flagged for a closer look

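Within the 5 intermediate libraries of R1 and of R4, each named gene and the ribosomal protein share were examined for a library far from the others (Dixon's criterion), which chance meets in about 1 in 20 groups. Of 66 groups examined, 4 met it, all in R4. At passage 11, RpL3 stood at 1572 CPM, with the others between 1434 and 1473. RpL8 stood at 1175 CPM in the same library, with the others between 1036 and 1076. RpS3 stood at 1634 CPM there, with the others between 1455 and 1490. That library had the highest ribosomal protein share of the R4 intermediate group, 8.81%, against 8.05 to 8.54% in the others. At passage 5, RpL41 stood low at 4331 CPM, with the others between 5092 and 5178. The test of the late-to-early change among lines called 0 members.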

How the results depend on the processing

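Counts in this section are of members only. The share of all genes called in each setting is not given, so a shift in a count may not be particular to the members. Late against early, 2 members were called. The count was 1 with median of ratios scaling, with total counts scaling and with passage 12 of R4 added, 4 without passage 2, 16 with DESeq2, and 0 with no filter, with the stricter filter, without R1 and without R4. Without the replicate block of lines (no replicate block) it was 0, and without R5 it was 3 (RpL31, RpL36A and RpS14b). Leaving out each of 31 libraries in turn gave 0 to 8. Intermediate against early it was 4 with DESeq2, 1 without R5 and 0 to 1 over single libraries. In R1 (6 called) it was 23 with passage 4 as intermediate, 3 without passage 2, 10 with DESeq2 and 2 to 24 over single libraries. The R1 median was 0.27 with passage 4 as intermediate and 0.11 to 0.27 over single libraries. In R4 (7 called) it was 4 with no filter, 3 without passage 2 and 3 to 9 over single libraries. In R5 (4 called) it was 2 with passage 4 as intermediate and 1 to 4 over single libraries, and the R5 median ran from -0.0377 to 0.142. The change among lines had 1 call with passage 4 as intermediate, 1 with DESeq2 and 0 to 1 over single libraries. Among lines at late (12 called) total counts scaling gave 19, and passages as replicate block gave 14. At early (0 called) total counts scaling gave 2, the stricter filter 1, DESeq2 3, passages as replicate block 1, and single libraries 0 to 1. The cause of these shifts was not tested. The fit of early and late libraries without the block, and the share without single libraries, were added after seeing the data. Lines have 1 culture each and stage sums leave 4 residual degrees of freedom, which limits what can be called.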

Other observations

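R4 at passage 12, which the labels put in no stage, had a ribosomal protein share of 8.61%. RpL37A stood there at 639.7 CPM, RpLP1 at 766 CPM, RpL8 at 1236 CPM and RpS14b at 240 CPM, 23.5% of the reads of the RpS14 pair.

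At passage 17 of R4, RpL23A (386 CPM) lay 0.59 above and RpL31 (1022 CPM) 0.48 above the mean log2 level of the other late R4 libraries, while RpS14a lay 0.41 and RpS15Ab 0.41 below it. These are the members with the most extreme deviations there apart from RpS14b (0.78 above), and they were picked after their values were seen.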
